A study of Homo sapiens with 15 samples.

Results

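This account concerns 6 genes that lie downstream of the kinase ERK: the transcription factor genes ETV4, EGR1 and MYC, the ERK phosphatase gene DUSP6, the stress and survival gene IER3, and EREG, which encodes a growth factor. They were picked by symbol from 14884 named genes because their values in earlier results of these data were higher in endotoxin-exposed cells than in untreated cells and lower again with resveratrol. The differences between those groups are therefore given as descriptions, without a test. All 6 were among the 11804 genes that passed a filter on low values.

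The cells were Caco-2, a human colon carcinoma line that acquires features of small-intestinal enterocytes at confluence. Untreated cells formed the control group. The LPS group received lipopolysaccharide of E. coli, a ligand of the receptor TLR4, at 1 µg/mL for 48 h. The LPS+RSV group received 50 µM trans-resveratrol, a plant polyphenol dissolved in ethanol, for 1 h and then the same LPS exposure. Each group had 5 arrays. The labels give no group with resveratrol alone, do not say whether the other groups received ethanol, and do not say whether replicates were separate cultures, so any p-value covers only the spread among these arrays, part of which may be technical.

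ERK is the last kinase of a cascade that starts when ligands such as epiregulin bind receptors of the EGFR family and activate RAS, RAF and MEK. Active ERK phosphorylates ETS-family factors that sit with SRF on serum response elements, and EGR1, IER3 and MYC are transcribed within a short time. DUSP6 is made later in the response and removes the activating phosphates from ERK, which closes a negative feedback loop. In intestinal epithelium this pathway drives renewal of crypt cells, and epiregulin feeds back on EGFR from the cells that make it. At 48 h of exposure the arrays record a late state and not the first transcriptional wave.

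Promoter sequence of 250 bases upstream of the RefSeq start (GRCh38.p14) was matched for EGR1, DUSP6 and EREG. It is shown to mark motifs through which SRF and ETS factors are known to act. ETV4 and IER3 were not matched, and MYC is not shown. The sequences are written 5′ to 3′ on the gene's strand. Capitals mark the CArG box, the SRF motif, and the string GGAAG, a form of the ETS core. Both were searched on both strands, so that GGAAG on the other strand reads CTTCC. Other GGAA stretches in the windows are neither marked nor counted.

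EGR1, chr5:138465229-138465478, plus strand: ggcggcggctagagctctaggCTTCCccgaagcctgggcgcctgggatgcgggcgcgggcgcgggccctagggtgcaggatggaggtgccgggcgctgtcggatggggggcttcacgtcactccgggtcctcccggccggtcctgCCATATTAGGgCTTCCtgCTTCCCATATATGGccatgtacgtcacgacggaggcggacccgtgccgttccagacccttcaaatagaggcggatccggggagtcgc
DUSP6, chr12:89352502-89352751, minus strand: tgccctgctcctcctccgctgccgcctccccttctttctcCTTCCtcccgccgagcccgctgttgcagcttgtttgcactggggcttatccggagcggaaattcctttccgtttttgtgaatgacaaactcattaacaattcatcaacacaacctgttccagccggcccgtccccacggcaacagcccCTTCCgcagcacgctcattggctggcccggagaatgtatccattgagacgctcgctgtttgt
EREG, chr4:74364895-74365144, plus strand: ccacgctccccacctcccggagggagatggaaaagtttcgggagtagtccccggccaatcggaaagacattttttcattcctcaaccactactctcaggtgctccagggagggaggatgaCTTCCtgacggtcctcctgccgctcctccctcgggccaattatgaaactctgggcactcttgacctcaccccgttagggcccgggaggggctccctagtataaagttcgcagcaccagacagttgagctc

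The EGR1 window held 2 CArG boxes, CCATATTAGG from base -105 to -96 and CCATATATGG from base -83 to -74 counted from the start site. A CArG box occurred in 1.16% of the 35116 promoter windows of this length. GGAAG matches stood between the boxes at bases -94 to -90 and -87 to -83. The second of these shares its last base with the downstream CArG box, and a further match lay at -229 to -225. The DUSP6 window held 2 GGAAG matches and the EREG window 1, and neither held a CArG box. At least 1 GGAAG match occurred in 65.1% of all windows. These matches describe the letters in the window and say nothing of whether a factor was bound.

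Over the 15 arrays the medians of all rows lay between 5.49 and 5.54, and pairs of arrays correlated between 0.922 and 0.994 over the genes tested. The array least like the others was LPS+RSV replicate 1, whose correlations averaged 0.946 where those of the other 14 averaged 0.973 to 0.984. Results that turn on it are given with and without it. Of 16 epithelial and enterocyte markers 11 were named on the array and all 11 passed the filter, and of 12 fibroblast, endothelial and immune markers 5 were named and 4 passed. The mean log2 deviation of those 4 markers ranged from -0.11 to 0.10 in control, -0.06 to 0.14 in LPS and -0.16 to 0.15 in LPS+RSV. That of the 11 epithelial markers ranged from -0.20 to 0.11 in control, -0.23 to 0.27 in LPS and -0.25 to 0.25 in LPS+RSV. Within LPS it was highest in replicates 1 and 2, at 0.22 and 0.27, and lowest in replicate 5. Its relation to the 6 genes was not tested. A proliferation score, the mean log2 deviation of 14 cell division genes, differed widely between arrays of 1 group: control arrays spanned -1.06 to 0.47, LPS arrays -0.02 to 1.05 and LPS+RSV arrays -0.96 to 0.44. It also differed between groups, with medians of -0.20, 0.24 and -0.44.

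EREG, the ligand among the 6, is set out from the start of the pathway. Its log2 values in control replicates 1 to 5 were 7.62, 7.87, 7.21, 7.26 and 7.05. In LPS they were 8.16, 8.40, 7.60, 8.22 and 8.67, and in LPS+RSV 6.42, 7.84, 7.28, 7.35 and 7.29. LPS replicate 3 lay inside the control range while the other 4 LPS arrays lay above it, and LPS+RSV replicate 1 was the lowest of all 15. The group means were 7.40 ± 0.33 in control, 8.21 ± 0.39 in LPS and 7.23 ± 0.51 in LPS+RSV (SD, n = 5 arrays each). LPS was higher than control by 0.81 ± 0.24 on the log2 scale (SE), or 1.75-fold, and LPS+RSV minus LPS was -0.97 ± 0.24. Without LPS+RSV replicate 1 the latter was -0.77. The LPS+RSV mean lay under the control mean with all arrays and 0.04 above it without LPS+RSV replicate 1.

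EGR1 encodes a zinc finger factor and is a classical immediate early gene. The control arrays spread over 6.95, 7.08, 7.17, 7.91 and 8.29 in replicates 1 to 5. The LPS values were 8.48, 8.61, 8.63, 7.91 and 8.20, and those of LPS+RSV were 7.35, 7.26, 7.44, 7.97 and 8.24. Control replicates 4 and 5 and LPS+RSV replicates 4 and 5 stood above their group mates and reached into the LPS range, and 3 of 5 LPS arrays exceeded every control array. Means were 7.48 ± 0.59, 8.37 ± 0.31 and 7.65 ± 0.43 in control, LPS and LPS+RSV. The difference of LPS from control was 0.88 ± 0.25 (SE) and that of LPS+RSV from LPS -0.71 ± 0.25, with 95% confidence intervals of 0.34 to 1.43 and -1.25 to -0.17.

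IER3, an immediate early gene whose product can keep ERK phosphorylated, had a narrow spread. Its control values were 7.48, 7.55, 7.23, 7.46 and 7.31. In LPS they were 7.91, 8.26, 7.72, 8.07 and 8.02, all above every control array, and in LPS+RSV 7.79, 7.58, 7.42, 7.41 and 7.32. LPS replicate 3 was the lowest of its group and lay under LPS+RSV replicate 1, so these groups overlapped by that pair of arrays. The means of 7.41 ± 0.13, 8.00 ± 0.20 and 7.50 ± 0.19 differed by 0.59 ± 0.11 for LPS minus control, a 1.51-fold difference, and by -0.49 ± 0.11 for LPS+RSV minus LPS. These were the smallest differences among the 6 genes in each of these comparisons.

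MYC encodes a basic helix-loop-helix factor that drives growth and division. The control arrays read 6.59, 6.77, 6.30, 6.45 and 6.31, the LPS arrays 7.39, 7.45, 6.75, 7.42 and 7.77, and the LPS+RSV arrays 6.76, 7.02, 6.43, 6.61 and 5.89. LPS replicate 3 was again the low array of its group, just under control replicate 2, and LPS+RSV replicate 5 was below every control array. The control mean was 6.48 ± 0.20, the LPS mean 7.36 ± 0.37 and the LPS+RSV mean 6.54 ± 0.43. LPS exceeded control by 0.87 ± 0.20 (SE), or 1.83-fold, and LPS+RSV differed from LPS by -0.81 ± 0.20.

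ETV4, an ETS factor of the PEA3 group, separated the groups most cleanly. Control arrays lay at 6.94, 6.78, 6.49, 6.67 and 6.25, and LPS+RSV arrays at 6.86, 6.87, 6.28, 6.72 and 6.41. The 5 LPS arrays, at 7.71, 7.71, 7.41, 7.37 and 7.38, lay above all 10 arrays of the other groups. The LPS mean of 7.52 ± 0.18 was 1.86-fold that of control, 6.62 ± 0.27, with a 95% confidence interval of 1.51 to 2.28. The LPS+RSV mean was 6.63 ± 0.27, which differed from that of LPS by -0.89 ± 0.14 (SE).

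DUSP6, the feedback phosphatase, differed most between LPS and control. The LPS arrays read 8.97, 9.07, 8.29, 7.87 and 7.81, the control arrays 6.85, 6.92, 6.70, 7.90 and 7.23, and the LPS+RSV arrays 7.61, 6.91, 7.08, 7.85 and 7.60. LPS replicates 1 and 2 were highest, and control replicate 4 lay above LPS replicates 4 and 5. The LPS mean was 8.40 ± 0.60, the control mean 7.12 ± 0.48 and the LPS+RSV mean 7.41 ± 0.39. LPS minus control was 1.28 ± 0.28 (SE), a 2.43-fold difference with an interval of 1.62 to 3.65, and LPS+RSV minus LPS was -0.99 ± 0.28. Without LPS replicates 1 and 2 these DUSP6 differences were 0.87 and -0.58. No other member moved by over 1.5 times when these arrays were left out.

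**Figure D1:**
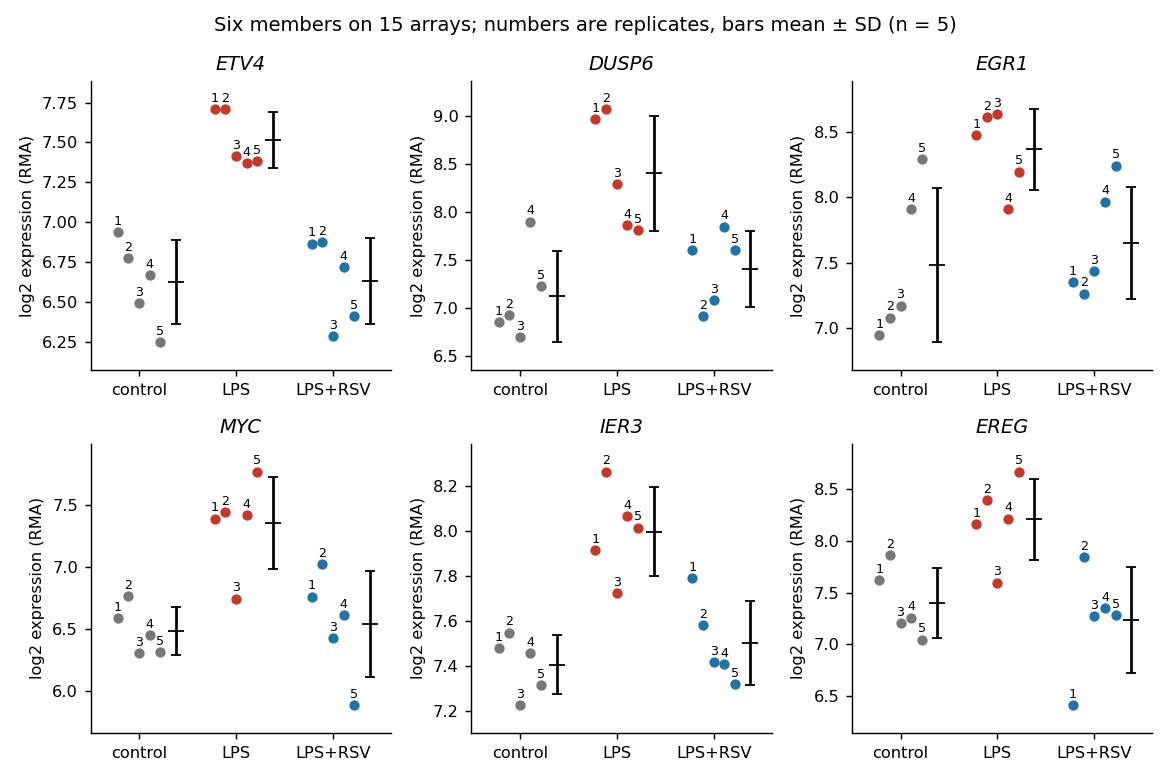
Log2 expression (RMA, y axis) of the 6 genes in control, LPS and LPS+RSV (x axis), 1 point per array with its replicate number, and mean ± SD over 5 arrays as bars. The LPS points lie above all others for ETV4 and overlap at least 1 other group for the other genes, for example through LPS replicate 3 at 6.75 for MYC.

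The LPS mean was thus the highest for each of the 6 genes, and the neighbours control and LPS+RSV differed by less than the SD within either group. The order of these neighbours is not settled for any of the 6 genes, because each confidence interval of their difference, given below, covers both signs. For 3 genes the sign also turned in at least 1 fit that left out 1 array. With all arrays LPS+RSV was above control for all but EREG, and the sign of the difference was kept in 14 of 15 fits that left out 1 array for EREG, turning without LPS+RSV replicate 1, in 14 of 15 for MYC, turning without LPS+RSV replicate 2, and in 10 of 15 for ETV4, turning without control replicate 3 or 5 or LPS+RSV replicate 1, 2 or 4. The estimates of all 6 were higher in LPS than in control, where 52.7% of all genes tested had a higher estimate. In LPS against control the groups had no overlap for 2 of the 6, ETV4 and IER3 (1.08% of all genes tested), and in LPS+RSV against LPS for 1, ETV4 (1.39%). Nothing is read from these shares, since the same values chose the genes.

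The comparison of LPS+RSV with control was not itself used to choose the genes. Its difference is the sum of the differences in the comparisons that were, so its p-values are not free of that choice. Its SEs, intervals and p-values also treat same-numbered arrays of both groups as unlinked, although some went together, as given below. The estimated difference was 0.01 ± 0.14 for ETV4 (95% confidence interval -0.29 to 0.30), 0.06 ± 0.20 for MYC (-0.36 to 0.47) and 0.10 ± 0.11 for IER3 (-0.13 to 0.32). For DUSP6 it was 0.29 ± 0.28 (-0.30 to 0.88), for EGR1 0.17 ± 0.25 (-0.37 to 0.71) and for EREG -0.17 ± 0.24 (-0.67 to 0.33). None of the 6 passed, with limma adjusted p-values between 0.67 for DUSP6 and 0.99 for ETV4. No gene of the whole table passed in this comparison either (0 of 11804, or 0%; 1239 of them, 10.5%, had an unadjusted limma p under 0.05), and 0 of the 6 had an unadjusted p under 0.05. The intervals leave room for differences of up to 1.23-fold for ETV4 and 1.83-fold for DUSP6, so a p over the threshold does not show equal levels. Over the fits that left out 1 array the difference ranged from -0.09 to 0.09 for ETV4, from -0.06 to 0.22 for MYC and from -0.32 to 0.04 for EREG, which each changed sign. It ranged from 0.18 to 0.48 for DUSP6, from 0.02 to 0.37 for EGR1 and from 0.03 to 0.14 for IER3.

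**Figure D2:**
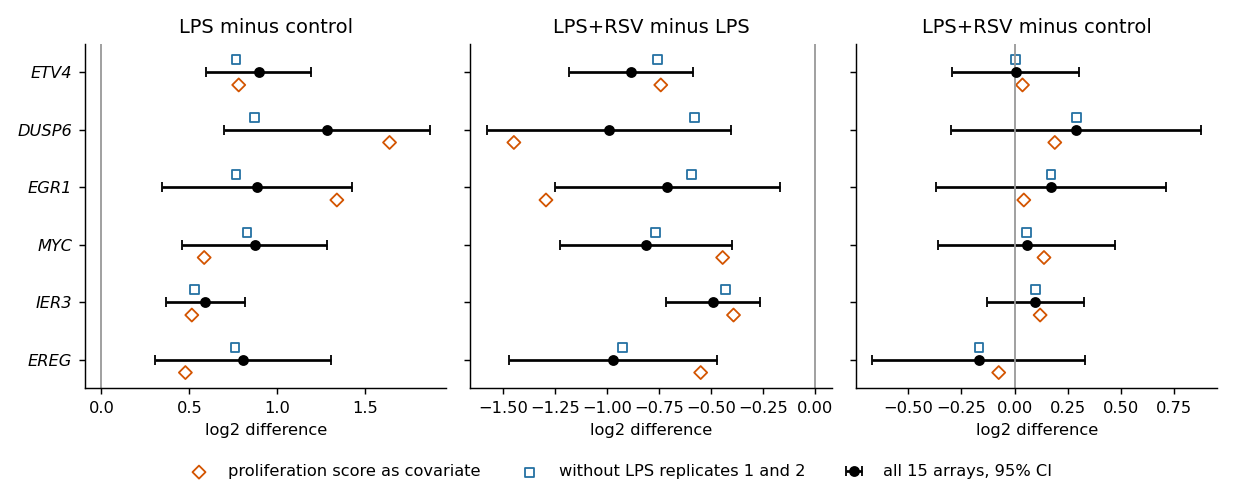
Log2 differences (x axis) of the 6 genes in the 3 comparisons, as estimates with 95% confidence intervals (black), with the proliferation score as a covariate (orange diamonds) and without LPS replicates 1 and 2 (blue squares). All intervals of LPS+RSV minus control include 0, and the diamonds lie farther from 0 than the black points for DUSP6 and EGR1 and nearer for MYC and EREG in the comparisons with LPS. In those comparisons the intervals do not allow for the choice of the genes by the same values.

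The 6 genes did not all vary together between arrays of 1 group, a property that the choice of genes did not use. With group means removed, EGR1 ran against the proliferation score over the 15 arrays (Pearson r = -0.87, permutation p = 0.00022, 0.00462 when adjusted; Spearman rho = -0.86, p = 0.0002, 0.0042 when adjusted). MYC ran with it (r = 0.72, permutation p = 0.00195, 0.0205 when adjusted; rho = 0.72, p = 0.00641, 0.0449 when adjusted). So did EREG (r = 0.68, permutation p = 0.00926, 0.0476 when adjusted; rho = 0.65, p = 0.0192, 0.0638 when adjusted). The array values show it directly: control replicate 5 had the lowest score of its group, -0.91 from the group mean, with EGR1 at 0.81 and MYC at -0.17 from theirs, whereas LPS+RSV replicate 2 had the highest deviation of the score, 0.77, with EGR1 at -0.39 and MYC at 0.48.

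DUSP6 leaned the same way as EGR1 against the score (r = -0.63, permutation p = 0.0219, 0.0638 when adjusted; rho = -0.66, p = 0.0117, 0.0585 when adjusted), which did not pass. For ETV4 and IER3 the correlations with the score were 0.41 and 0.39, with a permutation adjusted p of 0.29 for each. Among the 15 pairs of members, DUSP6 with EGR1 (r = 0.65, permutation p = 0.0102, 0.0476 when adjusted; rho = 0.61, p = 0.0139, 0.0585 when adjusted) and MYC with IER3 (r = 0.72, permutation p = 0.0113, 0.0476 when adjusted; rho = 0.80, p = 0.00232, 0.0244 when adjusted) passed on Pearson's r. EGR1 and MYC opposed each other at r = -0.58 (permutation p = 0.017, 0.0595 when adjusted), which did not pass. All these p-values are 2-sided, and the adjustment was Benjamini-Hochberg over 21 relations, the 15 pairs and the 6 genes with the score.

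Each relation was recomputed without the 2 arrays farthest from the median of its first gene. Then r was -0.76 for EGR1 and 0.69 for MYC with the score, 0.81 for EREG with the score, 0.61 for DUSP6 with EGR1 and 0.50 for MYC with IER3. None of the 21 passed with 13 arrays, where the lowest permutation adjusted p was 0.0556, for EGR1 and for EREG with the score. Over all genes tested, the deviations of some arrays of 1 group went together, at r = 0.56 for control replicates 1 and 2, 0.47 for control replicates 4 and 5 and 0.45 for LPS replicates 4 and 5. Arrays of control and LPS+RSV with the same replicate number also went together in part, at r = 0.71 for replicates 2, 0.43 for replicates 5 and 0.10 for replicates 4, but at 0.06 for replicates 3 and -0.44 for replicates 1. Their proliferation scores were alike in replicates 2 to 5, at 0.45, -0.20, -0.41 and -1.06 in control and 0.44, -0.16, -0.44 and -0.96 in LPS+RSV, and unlike in replicate 1, at 0.47 and -0.52. The permutations treat all arrays of a group as independent of each other and of the other groups, so if such arrays shared a culture or a day, these p-values are too small.

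The relations of EREG with MYC and IER3 turned on LPS+RSV replicate 1, the lowest EREG array. With that array the r of EREG was 0.52 with MYC (permutation adjusted p = 0.182) and 0.18 with IER3 (permutation adjusted p = 0.593). Without it, over 14 arrays, EREG ran with MYC (r = 0.85, permutation p = 1e-05, the smallest these permutations can give, 0.00021 when adjusted; rho = 0.91, p = 2e-05, 0.000315 when adjusted) and with IER3 (r = 0.78, permutation p = 0.00674, 0.0226 when adjusted; rho = 0.82, p = 0.00226, 0.0158 when adjusted). The 5 relations that passed on r with 15 arrays passed without it too, among them EGR1 with the score at r = -0.92 and EREG with the score at 0.79. This recomputation was chosen after the data were seen.

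**Figure D3:**
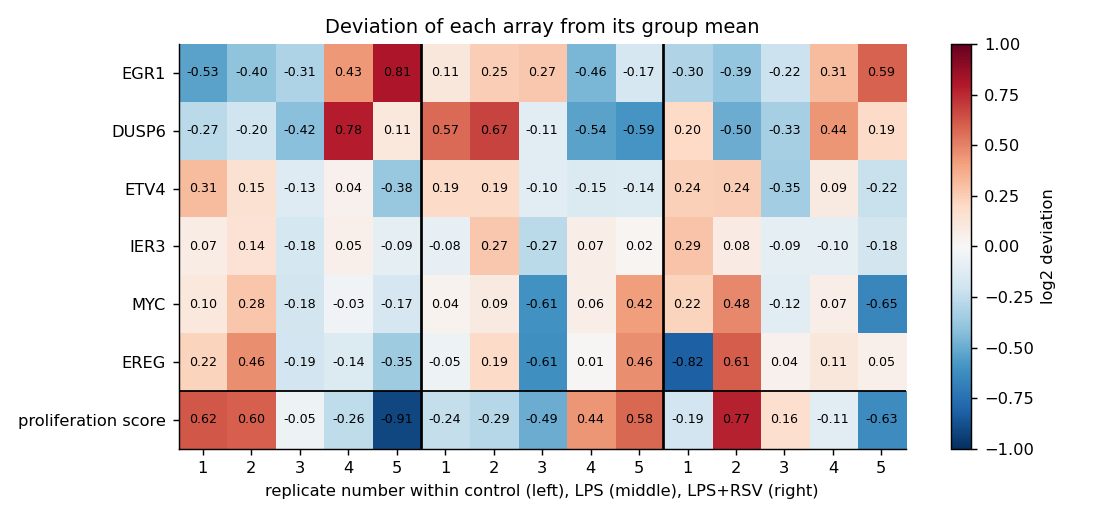
Deviation of each array from its group mean (log2, colour and printed value) for the 6 genes and the proliferation score (rows) on 5 arrays each of control, LPS and LPS+RSV (columns). EGR1 is highest where the score is lowest, as in control replicate 5 at 0.81 and -0.91. MYC and EREG tend to run with the score, but not on every array. In LPS replicate 2 they lie at 0.09 and 0.19 with the score at -0.29. In LPS+RSV replicate 1 MYC lies at 0.22 and EREG at -0.82, with the score at -0.19.

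With the score as a covariate in the model, the difference of LPS+RSV from LPS was -1.30 for EGR1 and -1.45 for DUSP6, against -0.71 and -0.99 without it. For MYC it was -0.45 and for EREG -0.55, against -0.81 and -0.97. ETV4 and IER3 moved less, to -0.74 and -0.39. For LPS minus control the covariate gave 1.34 for EGR1, 1.64 for DUSP6, 0.58 for MYC and 0.48 for EREG. The signs of all 6 were kept in both comparisons. Since the score itself differed between the groups, its part in these differences cannot be told apart from that of the treatments by this fit.

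The genes whose pattern was most like each member were ranked by Pearson's r over the 15 arrays, as a description that holds treatment and array differences alike. Those nearest to MYC were NIP7 (0.95), RANGAP1 (0.93) and JPT1 (0.93), and those nearest to EREG were PAK1IP1 (0.95), SAMD5 (0.94) and NIFK (0.93); NIP7, PAK1IP1 and NIFK encode nucleolar proteins of ribosome production. Those nearest to DUSP6 were CEACAM1 (0.94), the growth factor gene BMP2 (0.93) and the hexokinase gene HK2 (0.91). Those nearest to EGR1 were MPZL2, KLF6 and BMP2 (0.85 each), with DUSP6 in the fourth place at 0.83. For ETV4 they were the row named MIR622 (0.95), the keratin gene KRT18 (0.93) and MPV17L (0.93), with IER3 in the fifth place at 0.89. For IER3 they were GTF3A (0.94), the survival gene BCL2L1 (0.94) and PEA15 (0.93), with MYC in the sixth place at 0.90. The rank of EGR1 among genes like MYC was 3211 of 11804, at r = 0.28.

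EGR1 and IER3 had several rows on the array, and these differed. The second EGR1 row, with means of 5.90 ± 0.23, 6.21 ± 0.36 and 6.05 ± 0.19 in control, LPS and LPS+RSV, differed by 0.30 between LPS and control and by -0.16 between LPS+RSV and LPS, and correlated with the brighter row at r = 0.68 over the 15 arrays. IER3 had 11 rows. Of these, 6 bright rows, 4 of them with identical values, differed by 0.57 to 0.59 between LPS and control and correlated with the row used at 0.96 or more. The other 5 rows, identical among themselves, had means of 6.64 ± 0.08, 6.49 ± 0.18 and 6.76 ± 0.20 and ran the opposite way, at -0.15 for LPS minus control and 0.27 for LPS+RSV minus LPS (r = -0.55 with the row used). The strand and position of these rows were not given in the sources used here. Averaged over all 11 rows, IER3 differed by 0.25 and -0.14.

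**Figure D4:**
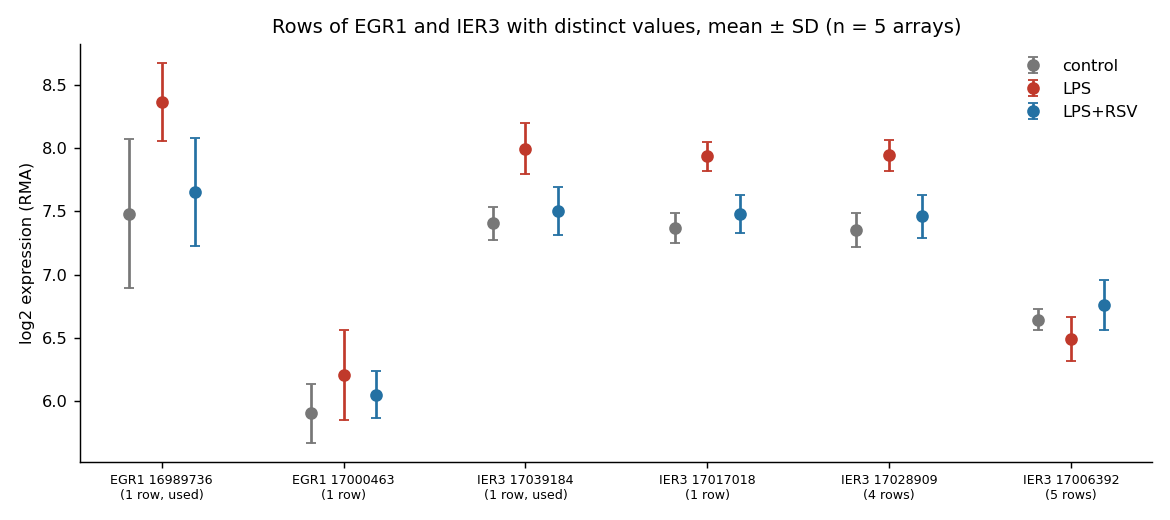
Mean ± SD (log2, y axis, n = 5 arrays) of every EGR1 and IER3 row with distinct values (x axis), with the number of rows that share them, in control, LPS and LPS+RSV. The LPS mean is the highest of the 3 in each set of rows except the 5 dim IER3 rows, where it is the lowest at 6.49.

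The rest of the pathway was described by 9 lists of 116 genes without the 6, of which 78 were named on the array and 71 tested. None passed limma adjusted over all genes in any comparison (0 higher and 0 lower), where 0.0254% of all genes were called higher in LPS than in control and 0.0339% lower with resveratrol than in LPS. In LPS against control 57 of 71 had a higher estimate (52.7% of all genes), with a median of 0.12 against 0.01 over all genes, and 11 were higher and 1 lower at an unadjusted limma p under 0.05 (4.62% and 3.26% of all genes). Between LPS+RSV and LPS, 40 of 71 had a lower estimate (47.9% of all genes), with a median of -0.03, and 14 were lower and 4 higher at that threshold (10.5% and 8.08%). In LPS+RSV against control 55 had a higher estimate (55.8% of all genes), and 6 were higher and 4 lower at that threshold (4.09% and 6.4%). Without LPS+RSV replicate 1 these 6 and 4 became 1 and 3. These comparisons share arrays, so their counts are not independent. Without LPS replicates 1 and 2 the unadjusted counts were 4 higher in LPS than in control and 6 lower with resveratrol than in LPS.

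Upstream genes showed small differences. Of 3 tested EGFR ligands, HBEGF, a ligand related to EREG, differed by 0.30 ± 0.12 in LPS and by -0.39 ± 0.12 in LPS+RSV against LPS (SE; limma adjusted p = 0.544 and 0.145). Of 7 receptors and adaptors, 0 had an unadjusted p under 0.05 in LPS against control; in LPS+RSV against LPS the adaptor GAB1 differed by -0.30 ± 0.08 and the receptor ERBB3 by 0.31 ± 0.12. Of 6 cascade genes, the scaffold KSR1 differed by -0.33 ± 0.10 and MAPK3, which encodes a form of ERK itself, by 0.22 ± 0.10 in that comparison. Among 5 SRF and ETS factors all estimates were higher in LPS than in control and lower with resveratrol than in LPS, with ETS2 at 0.34 ± 0.09 and -0.29 ± 0.09.

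The immediate early list, the class to which EGR1 and IER3 belong, had 17 of 19 estimates higher in LPS than in control, and 18 of 19 higher in LPS+RSV than in control. Its median was 0.14 for LPS minus control, 0.12 for LPS+RSV minus control and -0.01 for LPS+RSV minus LPS. TRIB1 differed by 0.52 ± 0.11 in LPS and by -0.26 ± 0.11 in LPS+RSV against LPS, and KLF10 by 0.31 ± 0.12 and -0.11 ± 0.12. FOS, named after its values were seen, was higher by 0.35 ± 0.15 in LPS and by 0.34 ± 0.15 in LPS+RSV, each against control, and differed by -0.01 between LPS+RSV and LPS, where EGR1 differed by -0.71. None of these differences passed limma adjusted over all genes.

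Of 11 feedback regulators beside DUSP6, 10 had higher estimates in LPS than in control and 7 lower estimates with resveratrol than in LPS. SPRY2, a Sprouty inhibitor of receptor signalling, differed by 0.32 ± 0.14 and -0.20 ± 0.14, and SPRY4 by 0.22 ± 0.11 and -0.28 ± 0.11. The nuclear phosphatase gene DUSP2 differed by 0.14 ± 0.06 and 0.01 ± 0.06, and the RAS inhibitor NF1 by 0.02 ± 0.09 and -0.26 ± 0.09. The 11 genes ranged from -0.02 to 0.35 and from -0.48 to 0.09, against 1.28 and -0.99 for DUSP6, which was chosen for its differences.

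Of 7 delayed ERK targets 6 had higher estimates in LPS, among them the cyclin gene CCND1 at 0.43 ± 0.09 and the receptor gene EPHA2 at 0.41 ± 0.15, and CCND1 differed by -0.27 ± 0.09 in LPS+RSV against LPS. Partners of MYC had a median of -0.0045 for LPS minus control and 0.02 for LPS+RSV minus LPS, where MXD4, a repressor that competes with MYC, differed by 0.21 ± 0.08 and MGA by -0.23 ± 0.08. Of 6 tested MYC targets, ODC1, which makes polyamines, differed by 0.50 ± 0.15 and -0.36 ± 0.15 in these comparisons, and the nucleolin gene NCL by 0.15 ± 0.09 and -0.27 ± 0.09. CCND2 ran the other way, at -0.35 ± 0.10 and 0.32 ± 0.10. The lowest limma adjusted p of any pathway gene in these comparisons was 0.115, for GAB1.

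**Figure D5:**
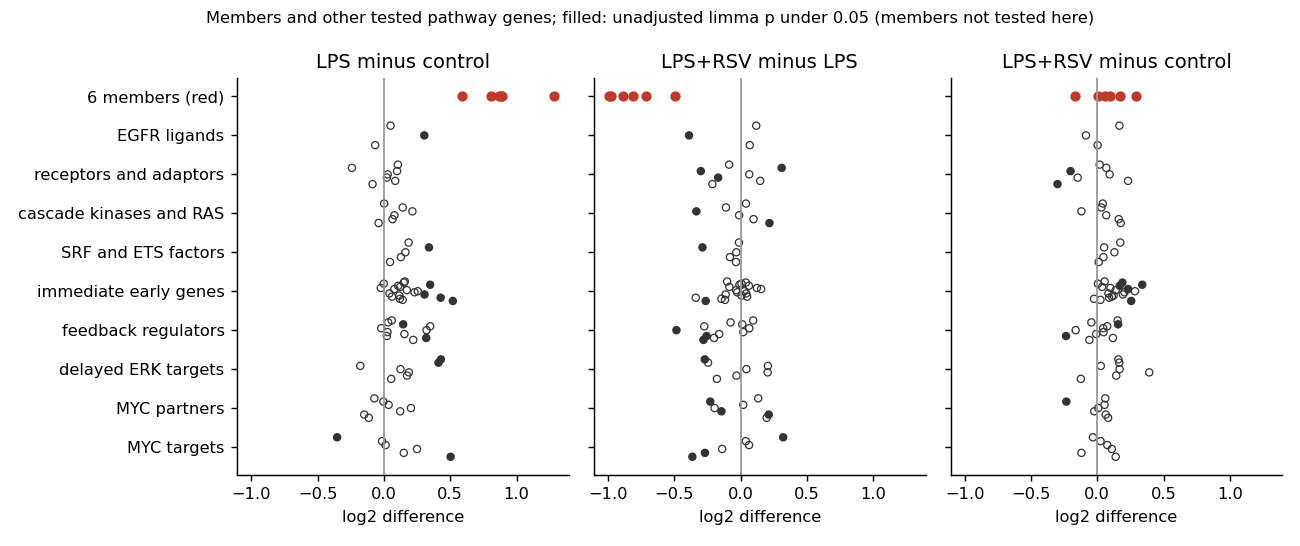
Log2 differences (x axis) of the 6 genes (red) and of 71 other tested pathway genes by role (rows; filled where the unadjusted limma p was under 0.05) in the 3 comparisons. The 6 genes lie between 0.59 and 1.28 in LPS minus control, beyond the highest other pathway gene at 0.52. They were chosen for their differences in this comparison and in LPS+RSV minus LPS, so nothing is read from that gap. In LPS+RSV minus LPS, IER3 at -0.49 lies beside the pathway gene ERRFI1 at -0.48.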

How the data were processed

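Gene expression was measured on 15 Affymetrix whole-transcript arrays of Caco-2 cells, 5 in each of 3 groups. The authors deposited log2 values from RMA, which corrects background, quantile-normalizes arrays and summarises probes, per the submitters' processing notes; the version and the annotation's genome build were not given in the sources used here. Quantile normalization forces the arrays to a common distribution, and summarised probe values compress changes of dim genes. Of 53617 rows, 16098 had 1 gene symbol in the platform annotation, 0 had several and 37519 were unnamed here, for 14884 symbols. The brightest row stood for each symbol, and genes above the 40th percentile of an array's rows on at least 5 arrays were tested, 11804 in all. The fit (limma 3.58.1, R 4.3.3, lmFit then eBayes) used 3 group means over the 15 arrays, with Benjamini-Hochberg adjustment over all genes tested at 0.05. The spread between arrays limits the precision.

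Correlations used values centred within groups and 100000 permutations of arrays within groups (Python 3.11.15). Scripts were tested on simulated data. The 6 genes and all gene lists were chosen with earlier results of these data known. Named genes followed a rule: the 6 genes, the 3 genes most correlated with each, and up to 2 genes of lowest p per pathway list and comparison. Alternatives covered the filter, the row per gene, normalization, moderation, array weights, the groups fitted, the replicate block, a proliferation covariate and arrays left out. Promoter sequences were RefSeq's on GRCh38.p14.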

Additional observations from a re-analysis of the deposited data

How the results depend on the processing

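Under every alternative run, all 6 genes kept their sign in both comparisons that involve the LPS group, and none passed in LPS+RSV against control under any. There the sign turned for EREG with array weights (0.03) and for ETV4 with array weights (-0.03), median centring (-0.0049) or cyclic loess (-0.0030), beside the arrays left out above. Differences moved by more than the residual SD of the fit for IER3 averaged over all rows (0.25 and -0.14) and, with the proliferation covariate, in LPS+RSV against LPS for EGR1 (-1.30), MYC (-0.45) and EREG (-0.55). Without the 2 farthest arrays, 5 correlations no longer passed: r = 0.61 for DUSP6 with EGR1, 0.50 for MYC with IER3, and -0.76, 0.69 and 0.81 for EGR1, MYC and EREG with the score, on fewer arrays. Without LPS+RSV replicate 1, an alternative chosen after seeing the data, EREG passed with MYC (0.85) and IER3 (0.78).

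Counts of called genes over the whole table depended on the setting, and the cause was not tested. LPS against control called 3 genes, and 1 with median centring, 15 with array weights, 0 with only the 2 groups compared (in limma) and 69 with the proliferation covariate. LPS+RSV against LPS called 5, and 14 with cyclic loess, 25 with array weights, 0 with only the 2 groups compared, 20 with the covariate and 1 without LPS replicates 1 and 2. Without 1 array at a time the counts ranged from 1 to 10 and from 1 to 122, the highest without LPS+RSV replicate 2, and were 0 throughout for LPS+RSV against control. With the replicate number as a block they were 6 and 3. Deviations of same-numbered arrays correlated between -0.54 and 0.71, over 0.1 in 4 of 15 pairs, 3 of them among the 5 pairs of control with LPS+RSV, each the best match of its array. Not every pair passed 0.1, so the numbers were not taken as pairs, but a link between some same-numbered arrays was not tested. The SEs and intervals of LPS+RSV against control ignore such a link. With the block, none of the 6 genes passed there, with limma adjusted p-values from 0.68 for IER3 to 0.98 for ETV4.

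Pathway genes lower in LPS against control at an unadjusted p under 0.05 numbered 1, and 2 with median centring, trended robust moderation, array weights or the covariate. Those higher numbered 11, and 22 with the covariate and 4 without LPS replicates 1 and 2. Those lower in LPS+RSV against LPS numbered 14, and 6 without these arrays. Those higher in LPS+RSV against control numbered 6, and 3 with array weights. Without 1 array at a time these counts ranged from 1 to 3, from 6 to 16, from 11 to 16 and from 1 to 8, and those higher in LPS+RSV against LPS from 3 to 7 and lower in LPS+RSV against control from 3 to 5.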
